A study of Mus musculus with 6 samples.

Results

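The vacuolar proton pump (V-ATPase) and the enzymes and membrane proteins of the lysosome that it acidifies were compared between embryonic and adult mast cells of mouse skin. The 49 genes were listed by function, but the list was chosen with earlier results of these data known. It held 7 subunits of the membrane sector of the pump (V0), 8 subunits of its cytosolic sector (V1) and 2 accessory subunits. It also held 10 lysosomal membrane proteins, 7 glycosidases, 5 genes of lipid handling and progranulin, and 10 peptidases. All 49 were found by symbol among the 47643 genes of the deposited count table, and all 49 passed the filter on low counts, as did 15111 genes in all. In 47 of them all 3 libraries of both groups reached the cutoff of the filter. Atp6v0d2, with 2 embryonic libraries at the cutoff, and Ctss, with 1, passed only through their adult libraries.

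Poly(A) RNA was sequenced in 3 libraries from skin mast cells of E16.5 embryos, which the submitters describe as derived from yolk sac hemogenic endothelium, and from 3 libraries of adult skin mast cells, which they call definitive. Every mouse, in both groups, carried Cdh5CreERT2, a tamoxifen-inducible Cre recombinase driven by the endothelial gene Cdh5, and received 4OHT (4-hydroxytamoxifen) at E7.5, and the labels give the adult age only as adult. Both gates took CD45+ ckit+ cells that lacked F4/80 and CD64, with ST2 as the last marker of the embryonic gate and Fcer1 as that of the adult gate, and adult skin was stripped of its epidermis in a further Dispase step. Age, described origin, last gate marker and that digestion step changed together, so their parts in any difference below cannot be told apart. The labels do not say whether the Cre label was used in the sort, whether a library pools animals, or whether replicates are separate animals. The p-values therefore describe the spread among these 6 libraries, which may be technical.

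The V-ATPase couples ATP hydrolysis in V1 to the passage of protons through V0 and so acidifies lysosomes and secretory granules. Lysosomal hydrolases and cathepsins are made as precursors, are mostly tagged with mannose 6-phosphate in the Golgi, and become active in the acid compartment. Mast cell granules are lysosome-related organelles: they are acidic, hold hydrolases beside histamine and heparin-bound proteases, and need cathepsin C for the maturation of several of those proteases. The factors TFEB, TFE3 and MITF bind a palindromic E-box in the promoters of many lysosomal genes.

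Libraries held 34122162 to 46778093 counts in the embryonic group and 40662062 to 49813523 in the adult group, so that 3 counts, taken as the limit of detection, corresponded to 0.0603 to 0.0850 CPM (counts per 1000000, on library sizes scaled by TMM). The mast cell label was met in both groups. Kit stood at 4682 to 5323 CPM in the embryonic libraries and 4829.6 to 5696 CPM in the adult ones. Cpa3 and Cma1, the mast cell markers with the highest level per kilobase of exon, were at 36889 to 39745 and 24929 to 29937 CPM in embryonic libraries and at 11819.6 to 14004 and 8454 to 10431 CPM in adult libraries. Hdc, the histidine decarboxylase gene and the marker with the highest CPM, was at 35797 to 43626 against 15475.5 to 18442 CPM. Of the gate markers, Il1rl1, which encodes ST2, stood at 1462 to 1616 against 856 to 936 CPM, Fcer1a at 4.39 to 7.32 against 552 to 907 CPM, and Fcgr1, which encodes CD64, at 0 to 0.0215 against 0 to 0.241 CPM. Adgre1, which encodes F4/80, stood at 0.107, 0.283 and 0.981 CPM in the embryonic libraries and at 2.41, 3.76 and 2.76 CPM in the adult ones, without overlap and higher in adult cells. Markers of other skin cells were not equal between libraries. The summed level of 12 macrophage markers was 9.69 to 17.1 CPM in embryonic libraries and 216, 237 and 129 CPM in adult replicates 1, 2 and 3. That of 7 dendritic and Langerhans cell markers was 3.57 to 5.01 CPM against 94.2, 100.8 and 44.5 CPM. Fibroblast markers summed to 552 to 683 CPM against 504, 443 and 91.4 CPM, and keratinocyte markers to 55.6, 112 and 523 CPM in embryonic replicates 1, 2 and 3 against 29.1 to 53.3 CPM. Embryonic replicate 3 and adult replicate 3 therefore stood apart in these markers. With both left out, an alternative chosen after the data were seen, 17 genes of the set passed toward adult and 16 toward embryonic cells, in place of 20 and 17. The calls of Atp6v0c (adjusted p = 0.13), Atp6v1c1 (0.098), Atp6v1d (0.055) and Cd63 (0.12) were lost, and none was gained.

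Of the 49 genes, 20 (40.8%) were higher in adult cells and 17 (34.7%) higher in embryonic cells at a Benjamini-Hochberg adjusted p under 0.05 in edgeR's quasi-likelihood test, and 12 did not pass. Among all genes tested, 31.7% passed toward adult, 31.2% toward embryonic and 63.0% in either direction, so the split of the set lay close to the background. In bulk RNA, fewer cells of a type and less RNA per cell cannot be told apart. The levels of 39 of the 49 genes did not overlap between the groups, against a background of 70.0%. A difference of at least 2-fold was reached by 8 genes toward adult, against 20.8% of all genes, and by 7 toward embryonic, against 17.2%. The median log2 fold change, coded here and below as adult minus embryonic, was 0.07 for the 49 genes and 0.02 for all genes. The 49 genes together took 1.34% to 1.44% of the counts of an embryonic library and 1.05% to 1.20% of those of an adult one. The roles within the set differed in direction: 9 of 17 pump and accessory genes passed toward adult and 3 toward embryonic cells. Of 17 glycosidase and peptidase genes, 5 passed toward adult and 10 toward embryonic cells.

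**Figure D1:**
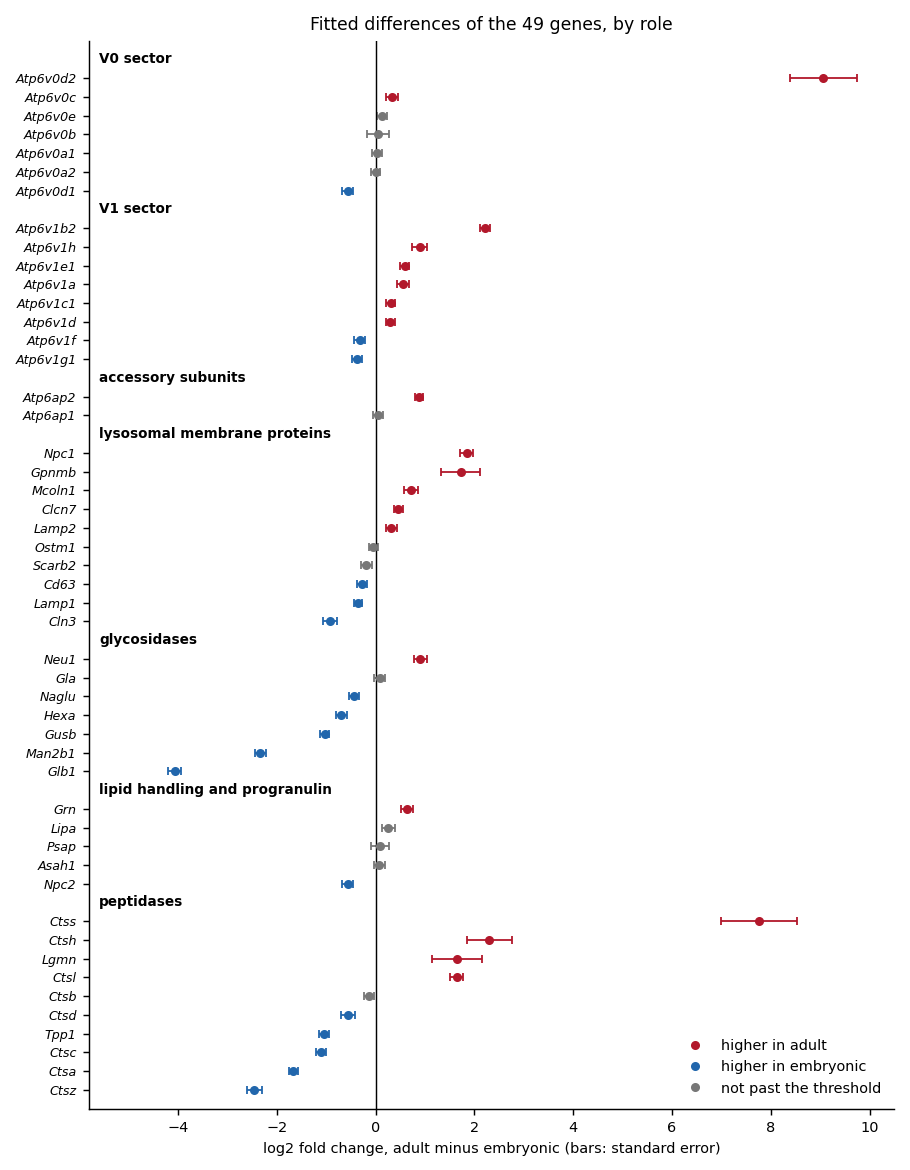
Fitted log2 fold change (horizontal axis, adult minus embryonic) of each of the 49 genes, grouped by role; points are the fitted values over 3 embryonic and 3 adult libraries and bars are standard errors. Red points were higher in adult, blue points higher in embryonic cells and grey points did not pass the threshold; Atp6v0d2 at 9.06 and Ctss at 7.76 lie farthest to the right and Glb1 at -4.07 farthest to the left.

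Promoter sequence was available in the RefSeq table (GRCm38.p6) for 39 of the 49 genes, as windows from 250 bases before to 50 after each annotated transcript start. The 8-base palindrome TCACGTGA, the core of the E-box bound by TFEB and its relatives, was searched on both strands. It was present in the windows of 9 of the 39 genes (23.1%), against 1.12% of 27025 genes with a window and 2.11% of the 10996 tested genes with one. The shorter E-box CACGTG, which every TCACGTGA contains, was present in 15 of the 39 (38.5%, against 8.09% of all and 11.4% of tested genes). The M-box TCATGTG, which the palindrome does not contain, was also searched on both strands. It was present in 8 (20.5%, against 4.31% of all and 2.87% of tested genes). Since the palindrome is known from promoters of many lysosomal genes, a larger share in any list of such genes is not an independent result. The palindrome stood in 3 of the 14 windowed genes that were higher in adult, 4 of the 16 that were higher in embryonic and 2 of the 9 that did not pass, so it stood in windows of genes of both directions. The sites of the 7 genes that passed are shown because they carry that result. Each line gives 30 bases of the gene's strand, 5′ to 3′, with the palindrome in capitals.
Atp6v1a, chr16:44139373-44139402, minus strand, higher in adult: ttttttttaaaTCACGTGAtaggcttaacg
Clcn7, chr17:25133386-25133415, plus strand, higher in adult: ccgatgatagaTCACGTGAgacctgggcgc
Mcoln1, chr8:3500462-3500491, plus strand, higher in adult: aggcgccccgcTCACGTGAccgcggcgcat
Atp6v0d1, chr8:105566050-105566079, minus strand, higher in embryonic: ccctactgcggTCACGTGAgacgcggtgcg
Cln3, chr7:126583340-126583369, minus strand, higher in embryonic: cacgggtactgTCACGTGAcccccaacctg
Ctsd, chr7:142387908-142387937, minus strand, higher in embryonic: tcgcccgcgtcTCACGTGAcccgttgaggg
Ctsa, first site, chr2:164833749-164833778, plus strand, higher in embryonic: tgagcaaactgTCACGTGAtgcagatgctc
Ctsa, second site, chr2:164833766-164833795, plus strand, higher in embryonic: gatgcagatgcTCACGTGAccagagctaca

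Counted from the RefSeq transcript start of the window as 1, the palindrome began at -132 in Atp6v1a, -122 in Cln3 and -99 in Ctsd. It began at -46 in Mcoln1 and -13 at the first Ctsa site. These sites lie upstream of that start but inside the gene spans of the deposited table, which begin farther upstream. In Atp6v0d1 the palindrome began at -4, where it spans the start. At the second Ctsa site and in Clcn7 it began inside the first exon, at 5 and 7. Only the Cln3 site was flanked by g and c, which completes the 10-base palindrome often drawn for this element. The other 2 genes with the palindrome, Atp6v0e and Gla, did not pass the threshold. A match of letters is a description of the window and not evidence of binding.

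The membrane sector of the pump held the largest fitted difference of the set with all 6 libraries. Atp6v0d2 (ENSMUSG00000028238, chr4:19876841-19922605 in the GRCm38 coordinates of the deposited table) encodes an isoform of the V0 subunit that joins the proton ring to the stalk of V1, and is best known from osteoclasts. It stood at 1.10, 0.142 and 1.94 CPM in embryonic replicates 1, 2 and 3 and at 591, 504 and 688 CPM in the adult replicates. All 3 adult libraries lay far above all 3 embryonic ones, and the fitted difference was 534-fold (log2 fold change 9.06, SE 0.68, adjusted p = 8.3e-05). The embryonic level rested on 149 counts over the group, and the fold was 855 without embryonic replicate 3 and 815 without both libraries numbered 3. Without embryonic replicate 3 the fitted fold of Ctss, described below, was larger than that of Atp6v0d2. Since Atp6v0d2 passed the filter only through the adult libraries, where it was high, the p-value adds nothing to the levels. Its partner isoform Atp6v0d1 differed in the other direction: 282, 293 and 269 CPM in embryonic against 199, 163 and 207 CPM in adult libraries, without overlap (log2 fold change -0.57, SE 0.11, adjusted p = 0.0014). Measured per kilobase of exon, so that the 2 genes can be compared, Atp6v0d2 supplied 0.256%, 0.0319% and 0.474% of the summed d-subunit level in embryonic libraries and 66.2%, 67.2% and 68.7% in adult libraries. The summed d-subunit level was 158, 164 and 151 CPM per kilobase in embryonic and 329, 276 and 369 in adult libraries.

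Apart from the d subunit, V0 genes differed little. Atp6v0c, the proteolipid of the proton-carrying ring, stood at 27.1, 24.1 and 22.9 CPM in embryonic against 34.7, 28.7 and 30.2 CPM in the adult ones (log2 fold change 0.34, SE 0.12, adjusted p = 0.037). That call was lost without embryonic replicate 2 or 3 or adult replicate 1 or 3 (adjusted p = 0.056 to 0.2), with DESeq2 (0.058) and without the filter (0.11). Atp6v0c is uncertain for a further reason: another gene overlaps 27.4% of its exon bases. The 4 other V0 genes did not pass. Atp6v0a1 (log2 fold change 0.03, SE 0.10, adjusted p = 0.81) and Atp6v0a2 (0.00, SE 0.09, adjusted p = 0.98) encode the arm of the proton channel. Atp6v0b (0.04, SE 0.22, adjusted p = 0.88) is a further ring proteolipid, and Atp6v0e (0.13, SE 0.10, adjusted p = 0.3) a small membrane subunit. Atp6v0b had the widest spread of them, 164 to 288 CPM within the embryonic group alone. Per kilobase, Atp6v0a2 supplied most of the a-subunit level in every library, 58.6% to 64.1% in embryonic and 62.0% to 67.8% in adult cells, and Tcirg1, the a3 isoform of osteoclasts and secretory lysosomes, 14.1% to 18.0% and 8.56% to 14.3%.

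All 8 genes of the V1 sector passed the threshold, against 63.0% of all genes tested. Of these, 6 passed toward adult and 2 toward embryonic cells (31.7% and 31.2% of all genes). Atp6v1b2 (ENSMUSG00000006273, chr8:69088646-69113711), the B subunit that forms the ATP-binding sites together with A, stood at 175, 182 and 167 CPM in the embryonic libraries and 858, 783 and 782 CPM in the adult ones. The groups were far apart and the replicates close together (4.62-fold, log2 fold change 2.21, SE 0.10, adjusted p = 7.7e-08). Its relative Atp6v1b1, the kidney isoform, supplied at most 0.106% of the B-subunit level per kilobase in any library. Atp6v1h, a regulatory subunit, stood at 257, 289 and 183 CPM in the embryonic libraries and 451, 440.2 and 464 CPM in the adult ones (log2 fold change 0.89, SE 0.15, adjusted p = 0.00064). Atp6v1e1, part of the peripheral stalk, stood at 199.7, 204 and 186 CPM against 292, 313 and 281 CPM (0.59, SE 0.09, adjusted p = 0.00038). Embryonic values of all 3 lay below every adult value.

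The catalytic A subunit, Atp6v1a, was 1.48-fold higher in adult cells (log2 fold change 0.56, SE 0.12, adjusted p = 0.0026), and Atp6v1c1 (0.30, SE 0.09) and Atp6v1d (0.29, SE 0.09), stalk subunits, were 1.23-fold higher, each with an adjusted p of 0.017. Atp6v1d, which had the highest level per kilobase of the sector in embryonic cells (83.8 ± 3.43 CPM per kilobase, SD, n = 3), stood at 123, 113 and 117 CPM against 139, 151 and 142 CPM. The small stalk subunits went the other way: Atp6v1f (log2 fold change -0.33, SE 0.11, adjusted p = 0.021) and Atp6v1g1 (-0.38, SE 0.10, adjusted p = 0.0072) were higher in embryonic cells, by 1.25-fold and 1.31-fold. Some of these small calls were lost with fewer libraries. That of Atp6v1c1 was lost without any of embryonic replicates 1, 2 and 3 or adult replicates 2 and 3 (adjusted p = 0.052 to 0.089). That of Atp6v1d was lost without embryonic replicate 2 or 3 or adult replicate 2 (0.063 to 0.13), and that of Atp6v1f without adult replicate 2 (0.095). Without the filter, Atp6v1c1 (0.094) and Atp6v1d (0.11) did not pass. Summed over the 8 genes, the V1 level was 1341, 1355 and 1184 CPM in the embryonic libraries and 2454, 2462 and 2322 CPM in the adult ones. The V0 sum was 987, 1073 and 1091 CPM against 1634, 1417 and 1699 CPM. Atp6v1b2 made up 13.1% to 14.1% of the V1 sum in embryonic and 31.8% to 35.0% in adult libraries, and without it the sum was 1165, 1174 and 1017 CPM against 1596, 1679 and 1539.9 CPM. Atp6v0d2 made up at most 0.178% of the V0 sum in embryonic and 35.6% to 40.5% in adult libraries. Without it the V0 sum was 986, 1073 and 1089 CPM against 1042, 913 and 1011 CPM, with overlapping groups.

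Of the accessory subunits, Atp6ap2, also known as the prorenin receptor, stood at 143, 131 and 138 CPM in the embryonic libraries and 253, 259 and 245 CPM in the adult ones (1.84-fold, log2 fold change 0.88, SE 0.09, adjusted p = 1.8e-05). Its partner Atp6ap1, which had the higher level per kilobase, stood at 462, 429 and 476 CPM against 480.4, 494 and 429 CPM, with overlapping groups (0.04, SE 0.10, adjusted p = 0.75).

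**Figure D2:**
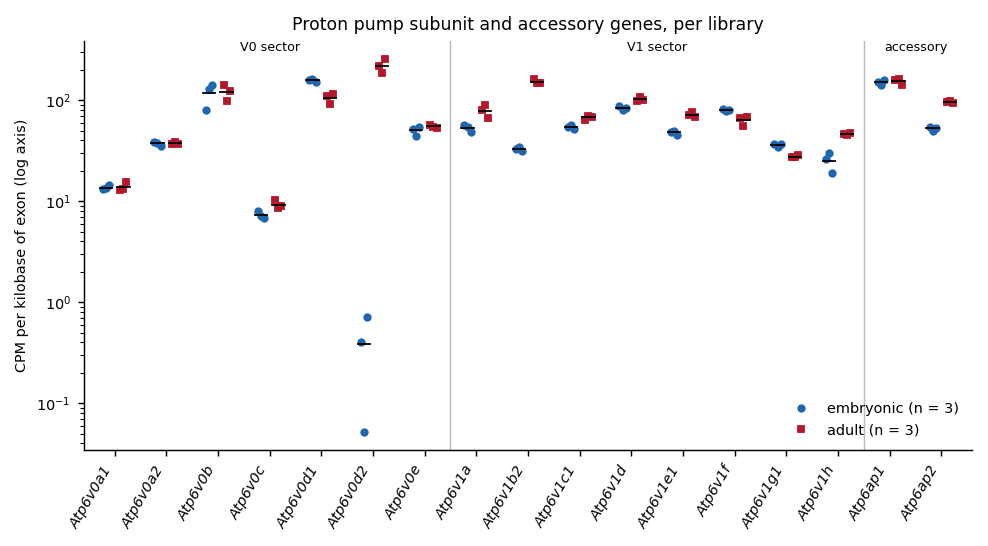
Level of the 17 pump and accessory genes in each library, in CPM per kilobase of exon on a log axis; each point is a library (blue circles embryonic, red squares adult, 3 each) and black lines are group means. Atp6v0d2 spans from a mean of 0.39 in embryonic to 219 in adult libraries, Atp6v1b2 from 32.9 to 152, and the other genes shift by much less.

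Among the 10 lysosomal membrane proteins, 5 passed toward adult and 3 toward embryonic cells (31.7% and 31.2% of all genes tested). Npc1, which exports cholesterol from the lysosome, stood at 17.2, 16.1 and 19.0 CPM in the embryonic libraries and 63.1, 53.6 and 70.9 CPM in the adult ones (3.58-fold, log2 fold change 1.84, SE 0.13, adjusted p = 1.7e-06). Cln3, a membrane protein lost in juvenile Batten disease, was higher in embryonic cells, at 35.6, 36.1 and 40.8 against 21.8, 21.0 and 16.3 CPM (log2 fold change -0.93, SE 0.14, adjusted p = 0.00023). Neither gene's groups overlapped. Gpnmb, a glycoprotein of melanosomes and of macrophage lysosomes, was scarce, at 1.57, 3.23 and 2.17 CPM against 10.98, 7.80 and 4.03 CPM (1.72, SE 0.40, adjusted p = 0.0044). Its fold was 3.29, 4.07 without adult replicate 3 and 3.95 without both libraries numbered 3. Its lowest adult value was in replicate 3, the library with the lowest macrophage and fibroblast marker sums. Melanocyte markers summed to 36.5 to 58.0 CPM in the embryonic libraries and 4.08 to 16.4 CPM in the adult ones, with Pmel (18.4 to 27.7 against 3.21 to 6.01 CPM) and Dct (10.0 to 17.7 against 0.184 to 4.06 CPM) the most abundant.

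The calcium channel Mcoln1 (log2 fold change 0.72, SE 0.14, adjusted p = 0.0016) and the chloride-proton exchanger Clcn7 (0.46, SE 0.09, adjusted p = 0.0016) were higher in adult cells. Ostm1, which encodes the beta subunit of Clcn7, did not pass, at 130.2, 132 and 128 CPM in the embryonic libraries and 116, 135 and 125 CPM in the adult ones (-0.05, SE 0.09, adjusted p = 0.66). Scarb2, the receptor that carries glucocerebrosidase to lysosomes, did not pass either, at 92.1, 89.9 and 91.8 against 69.2, 82.6 and 88.2 CPM (-0.19, SE 0.11, adjusted p = 0.15). The abundant coat glycoproteins split: Lamp1 was 1.28-fold higher in embryonic cells (-0.36, SE 0.09, adjusted p = 0.0053), while Lamp2 was 1.25-fold higher in adult cells (0.32, SE 0.10, adjusted p = 0.023). Cd63, a tetraspanin of mast cell granules and the gene of this group with the highest level per kilobase (540.2 ± 26.3 in embryonic, 443 ± 34.4 in adult, SD, n = 3), was higher in embryonic cells. Its libraries stood at 571, 526 and 574 against 497, 429 and 446 CPM (-0.29, SE 0.10, adjusted p = 0.03). The Lamp2 call was lost without embryonic replicate 1 or 2 or adult replicate 2 (adjusted p = 0.086 to 0.14) and without the filter (0.077), and the Cd63 call without embryonic replicate 1 or adult replicate 2 or 3 (0.063 to 0.12).

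Glycosidases were mostly higher in embryonic cells: 5 of 7 passed in that direction and 1 toward adult (31.2% and 31.7% of all genes tested). Glb1 (ENSMUSG00000045594, chr9:114401076-114474376), lysosomal beta-galactosidase, stood at 525, 551 and 605 CPM in the embryonic libraries and 34.2, 36.4 and 29.3 CPM in the adult ones. Every embryonic library lay more than an order of magnitude above every adult one (16.8-fold, log2 fold change -4.07, SE 0.13, adjusted p = 9.7e-09). Man2b1, lysosomal alpha-mannosidase and the most abundant of the 7 per kilobase in embryonic cells (267 ± 21.6 CPM per kilobase, SD, n = 3), followed. It stood at 1260.4, 1087 and 1114 CPM against 212, 227 and 248 CPM (5.04-fold, -2.33, SE 0.11, adjusted p = 1.2e-07). Gusb, beta-glucuronidase, which degrades glycosaminoglycans, stood at 295, 296 and 301 against 159, 144 and 133 CPM (2.05-fold, -1.03, SE 0.10, adjusted p = 1.1e-05). None of these overlapped between groups.

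Hexa, the alpha subunit of beta-hexosaminidase, whose release is the usual assay of mast cell degranulation, was 1.62-fold higher in embryonic cells (log2 fold change -0.70, SE 0.11, adjusted p = 0.00027), at 506, 456 and 459 against 323, 289 and 265 CPM. Naglu, a heparan sulfate-degrading glucosaminidase, was 1.35-fold higher in embryonic cells (-0.43, SE 0.10, adjusted p = 0.003). Neu1, a sialidase that is held in a complex with Glb1 and Ctsa, went the other way, at 99.5, 123 and 140.0 CPM in the embryonic libraries and 244, 207 and 227 CPM in the adult ones (0.90, SE 0.13, adjusted p = 0.00022). Gla, alpha-galactosidase, did not pass, at 178, 229 and 192 against 202, 211 and 219 CPM (0.08, SE 0.11, adjusted p = 0.56). Summed over the 7 genes, the glycosidase level was 2994, 2864 and 2934 CPM in the embryonic libraries and 1258, 1207 and 1220.5 CPM in the adult ones.

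Of the 5 genes of lipid handling and progranulin, 1 passed in each direction (31.7% of all genes tested toward adult and 31.2% toward embryonic cells). Npc2, which hands cholesterol to Npc1, was higher in embryonic cells, at 221, 179 and 200.2 against 143, 139 and 123 CPM (1.48-fold, log2 fold change -0.56, SE 0.11, adjusted p = 0.0014), the direction opposite to that of Npc1. Grn, progranulin, was higher in adult cells, at 382, 330.2 and 415 against 666, 554 and 526 CPM (1.55-fold, 0.63, SE 0.13, adjusted p = 0.0015). Psap, the precursor of the saposins and the most abundant of the 5 per kilobase, stood at 671, 445 and 621 against 536, 760.2 and 543 CPM, with a spread within groups larger than the difference between them (0.08, SE 0.19, adjusted p = 0.72). Asah1, acid ceramidase, at 114, 102 and 118 against 108, 134 and 109.7 CPM, did not pass (0.07, SE 0.11, adjusted p = 0.6). Lipa, acid lipase, at 23.3, 21.0 and 22.8 against 23.7, 29.7 and 26.9 CPM, did not pass (0.26, SE 0.13, adjusted p = 0.098), although it did without adult replicate 1 (0.34, adjusted p = 0.049).

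Of 10 peptidases, 5 passed toward embryonic and 4 toward adult cells (31.2% and 31.7% of all genes tested), and they split by abundance. The 5 that were higher in embryonic cells and Ctsb, which did not pass, had embryonic means of 313 to 1684 CPM. The 4 that were higher in adult cells had embryonic means of 0.107 to 15.6 CPM. Embryonic means in part follow from the direction. Adult means lay closer together, at 75.4 to 1143 CPM for the former and 2.26 to 48.7 CPM for the latter. Ctsz (ENSMUSG00000016256, chr2:174427493-174439039), cathepsin X, a carboxypeptidase, stood at 440.2, 395 and 406 CPM in the embryonic libraries and 92.5, 73.2 and 60.5 CPM in the adult ones (5.49-fold, log2 fold change -2.46, SE 0.15, adjusted p = 7.9e-07). Ctsa, the carboxypeptidase that protects Glb1 and Neu1, stood at 378, 345 and 363 against 123, 112 and 108 CPM (3.17-fold, -1.67, SE 0.10, adjusted p = 4.7e-07). Ctsc, cathepsin C, which activates granule serine proteases, stood at 1135, 1077 and 1195 against 506, 577 and 497 CPM (2.16-fold, -1.11, SE 0.10, adjusted p = 9.8e-06). All 3 were without overlap. Tpp1, tripeptidyl peptidase, was 2.07-fold higher in embryonic cells (-1.05, SE 0.10, adjusted p = 9.8e-06). Ctsd, cathepsin D, the aspartic protease with the highest level per kilobase of all 49 genes (669 ± 83.8 in embryonic, 454 ± 63.4 in adult, SD, n = 3), was also higher in embryonic cells. It stood at 1926, 1591 and 1535 against 1321, 1097 and 1012 CPM (-0.56, SE 0.13, adjusted p = 0.0045). Ctsb, cathepsin B, stood at 320.4, 288 and 330.3 against 311, 279 and 265 CPM (-0.14, SE 0.10, adjusted p = 0.28).

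The peptidases that were higher in adult cells were cysteine proteases of low level. Ctss (ENSMUSG00000038642, chr3:95526786-95556403), cathepsin S, which trims the class II invariant chain in antigen-presenting cells, stood at 0, 0.0283 and 0.292 CPM in the embryonic libraries and 28.3, 32.9 and 15.1 CPM in the adult ones. The embryonic group held 15 counts in all and the adult group 3408, a ratio of 225 (95% exact interval 136 to 402, counting error only) after scaling for library size. The fitted difference was 217-fold (log2 fold change 7.76, SE 0.77, adjusted p = 0.00016), and 140-fold without embryonic replicate 1, 1630-fold without embryonic replicate 3, 473-fold by limma-voom and 2023-fold without both libraries numbered 3. Since it passed the filter through the adult libraries alone, a difference in this direction was the only kind it could show, and the p-value adds nothing to the levels. Ctsh, an aminopeptidase, stood at 1.52, 1.10 and 1.73 against 9.41, 9.46 and 2.74 CPM (2.30, SE 0.46, adjusted p = 0.002). Its fold was 4.94, 6.46 without adult replicate 3 and 7.10 without both libraries numbered 3. Lgmn, legumain, which cleaves after asparagine, stood at 0.451, 0.623 and 1.08 against 3.22, 2.38 and 1.18 CPM (1.65, SE 0.50, adjusted p = 0.016). This call was lost without embryonic replicate 1 or 2 or adult replicate 1 (adjusted p = 0.056 to 0.075). Without both libraries numbered 3 the Lgmn fold was 5.22 in place of 3.13. Ctsl, cathepsin L, stood at 14.4, 15.2 and 17.4 against 47.8, 54.7 and 43.4 CPM (1.64, SE 0.13, adjusted p = 3.4e-06).

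Adult replicate 3 was the lowest adult library for Ctss, Ctsh, Lgmn and Gpnmb, at 0.494, 0.290, 0.423 and 0.429 times the mean of the other 2. The macrophage marker Lyz2 stood at 142, 168 and 62.6 CPM in adult replicates 1, 2 and 3 (0.403 times). The Langerhans cell marker Cd207 stood at 53.9, 58.1 and 21.9 CPM (0.392 times) and the fibroblast gene Dcn at 148, 128 and 30.2 CPM (0.219 times). Lyz2 stood at 0.085 to 0.689 CPM and Cd207 at 0 to 0.0626 CPM in embryonic libraries. Other leading markers were Cd14, at 51.4, 47.6 and 47.5 CPM in adult and 0.644 to 1.17 CPM in embryonic libraries, and Flt3, at 11.2, 12.5 and 5.89 CPM in adult and 0 to 0.25 CPM in embryonic ones. The fibroblast markers with the highest CPM were also lowest in that library: Col3a1 stood at 125, 137 and 25.2 CPM in adult libraries (247 to 340.3 in embryonic), and Col1a2 at 127, 107 and 16.4 CPM (134 to 142 in embryonic). Per kilobase, Dcn was the highest of the 6 fibroblast markers in adult libraries and Col3a1 in embryonic ones. Of the 6, only 1 passed, toward adult cells, and the median log2 fold change was -0.86 (range -1.60 to 2.24). Dcn therefore does not stand for the whole list. Of 11 macrophage markers tested, 9 passed toward adult and 1 toward embryonic cells (31.7% and 31.2% of all genes tested). Their log2 fold changes ranged from -4.14 to 7.95. Of the 12 listed, 4 averaged under 1 CPM in adult libraries, so Lyz2 and Cd14 do not stand for that list either. Krt1 (19.0, 43.6 and 243 CPM) and Krt10 (18.4, 42.2 and 218 CPM), the most abundant keratinocyte markers, were highest in embryonic replicate 3. Ctsl was less uneven, with adult replicate 3 at 0.847 times the mean of the other 2, Glb1 at 0.831 times and Atp6v1b2 at 0.953 times, while for Atp6v0d2 that library was the highest, at 1.26 times. The part of other cell types in Ctss, Ctsh, Lgmn and Gpnmb was not tested.

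**Figure D3:**
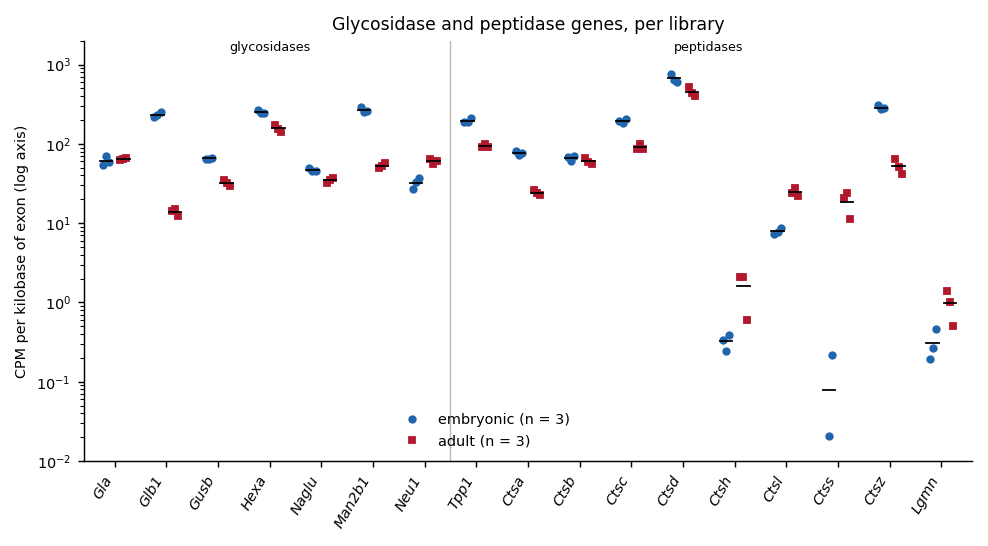
Level of the 7 glycosidase and 10 peptidase genes in each library, in CPM per kilobase of exon on a log axis; each point is a library (blue circles embryonic, red squares adult, 3 each), black lines are group means, and embryonic replicate 1 of Ctss, at 0, cannot be drawn. Glb1, Man2b1, Ctsa and Ctsz sit higher in embryonic libraries, and the genes that sit higher in adult libraries among the peptidases are those with the lowest levels.

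**Figure D4:**
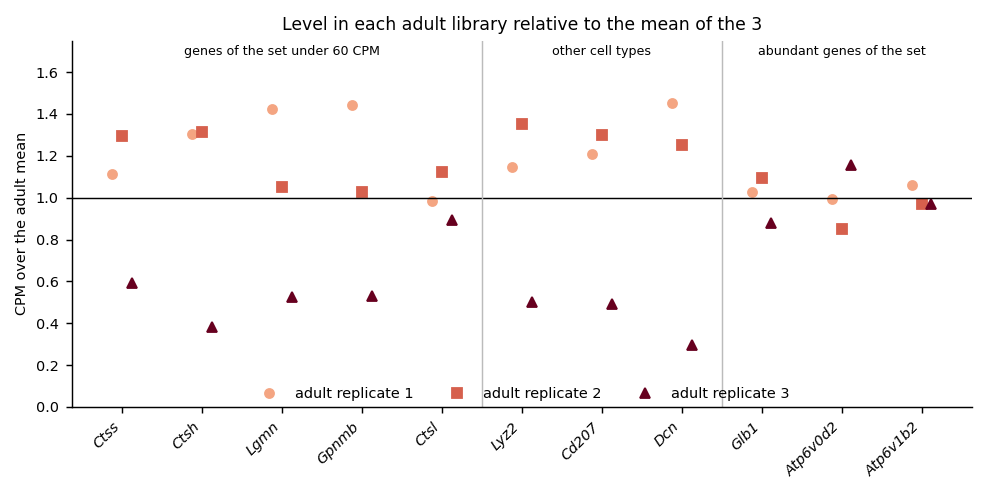
CPM in each of the 3 adult libraries divided by the mean of the 3 (vertical axis, no unit). Ctss, Ctsh, Lgmn, Gpnmb and Ctsl, chosen from the genes of the set under 60 CPM, stand beside markers of other cell types. At the right are 3 genes of the set labelled abundant, although Glb1 averaged 33.3 CPM in adult libraries (560 in embryonic). Not shown are other genes of the set under 60 CPM. For these, adult replicate 3 stood at 0.953 (Atp6v0c), 1.04 (Atp6v1g1), 1.01 (Lipa) and 0.76 (Cln3) times the mean of the other 2. Adult replicate 3 (dark triangles) is the lowest library for Ctss, Ctsh, Lgmn and Gpnmb and for Lyz2, Cd207 and Dcn, and is the highest for Atp6v0d2.

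Genes around the pump and the lysosome were taken from 7 further lists of 117 genes, 116 of them in the table and 109 tested: 47 (43.1%) passed toward adult and 25 (22.9%) toward embryonic cells, against 31.7% and 31.2% of all genes tested. Their median log2 fold change was 0.17, against 0.02. Of 9 other pump isoforms, 5 were tested and 1 passed: Tcirg1, at 38.1, 50.6 and 46.9 CPM in embryonic against 37.3, 21.7 and 31.1 CPM in adult libraries (-0.59, SE 0.20, adjusted p = 0.026). The Tcirg1 call was lost without embryonic replicate 2 or adult replicate 2 or 3 (adjusted p = 0.053 to 0.061), and without both libraries numbered 3 (0.11). Of 10 assembly factors and regulators of the pump, 5 passed toward adult and 1 toward embryonic cells. Dmxl2, a rabconnectin of the complex that joins V1 to V0, stood at 1.55, 2.12 and 1.98 against 17.9, 13.9 and 26.1 CPM (3.36, SE 0.26, adjusted p = 3.5e-06). Ncoa7 (3.14, SE 0.18, adjusted p = 3.4e-07) and Oxr1 (0.96, SE 0.10, adjusted p = 2.1e-05), TLDc-domain proteins that bind V1, were 8.82-fold and 1.95-fold higher in adult cells.

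Of 34 other hydrolases tested, 14 (41.2%) passed toward adult and 10 (29.4%) toward embryonic cells, near the shares of all genes. Plbd1, a phospholipase B-like protein, stood at 0.451, 0.198 and 3.09 against 80.1, 85.0 and 27.8 CPM (log2 fold change 5.62, SE 1.05, adjusted p = 0.0066). It passed the filter only through the adult libraries, since 2 of the 3 embryonic ones reached the cutoff, so its p-value adds nothing to the levels. Scpep1, a serine carboxypeptidase, stood at 2.90, 3.46 and 6.05 against 32.6, 37.1 and 33.7 CPM (3.05, SE 0.26, adjusted p = 9.7e-06). Galns, a glycosaminoglycan sulfatase, was higher in embryonic cells, at 29.9, 31.0 and 28.4 against 4.71, 4.68 and 3.68 CPM (-2.77, SE 0.15, adjusted p = 2.7e-07). Adult replicate 3 was again the lowest library for Plbd1, at 0.336 times the mean of the other 2, and the 49.3-fold difference became 182-fold without embryonic replicate 3, 241-fold without both libraries numbered 3 and 79.7-fold by limma-voom. Of 32 other membrane proteins and transporters, 13 (40.6%) passed toward adult and 5 (15.6%) toward embryonic cells, against 31.7% and 31.2% of all genes tested. The endolysosomal channel Mcoln3 was scarce and higher in embryonic cells (4.36, 7.17 and 5.15 against 0.241, 0.438 and 0.0789 CPM, -4.42, SE 0.51, adjusted p = 4.4e-05). Its fold was 32.8 without adult replicate 2 in place of 21.5, and it passed the filter only through the embryonic libraries. Slc15a4, a histidine and peptide transporter, was higher in adult cells (43.3, 32.2 and 49.1 against 209.7, 215 and 209.8 CPM, 2.35, SE 0.15, adjusted p = 8.3e-07). So was Cd68, a membrane glycoprotein abundant in macrophages (12.1, 18.6 and 34.3 against 78.0, 59.9 and 83.6 CPM, 1.76, SE 0.38, adjusted p = 0.0071).

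Of the 7 genes of mannose 6-phosphate tagging and sorting, 4 passed toward embryonic and 2 toward adult cells (31.2% and 31.7% of all genes tested). Igf2r, the large mannose 6-phosphate receptor that delivers hydrolases to endosomes, stood at 80.2, 90.0 and 79.0 CPM in the embryonic libraries and 5.95, 3.97 and 5.63 CPM in the adult ones (16.0-fold, log2 fold change -4.00, SE 0.17, adjusted p = 5.2e-08). Sort1, an alternative sorting receptor, stood at 23.4, 24.3 and 21.5 against 2.07, 1.80 and 1.08 CPM (-3.79, SE 0.23, adjusted p = 6.1e-07). M6pr, the smaller receptor for the same tag and named here for that role after its values were seen, went the other way, at 138, 149 and 168 against 212, 224 and 202 CPM (0.49, SE 0.10, adjusted p = 0.0022). Gnptg, a subunit of the tagging enzyme, was 4.76-fold higher in embryonic cells (-2.25, SE 0.14, adjusted p = 6.3e-07), but Unkl overlaps 49.5% of its exon sequence. The palindrome TCACGTGA was present in the windows of 8 of the 94 genes of the 7 lists that had one (8.51%, against 1.12% of all genes), 3 of them, Gnptg, Igf2r and Sumf1, among the 5 such genes of this list.

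Of 17 tested genes of the MiT factors and the lysosomal mTORC1 scaffold, 11 passed toward adult and 3 toward embryonic cells. The shares of all genes tested were 31.7% and 31.2%. Among those whose higher group averaged 5 CPM or more, Lamtor3, a subunit of the Ragulator complex, had the largest difference, at 46.9, 50.3 and 52.2 against 140.1, 124 and 126 CPM (log2 fold change 1.38, SE 0.10, adjusted p = 1.6e-06). The Rag GTPase Rragb followed, at 5.09, 5.95 and 3.82 against 8.99, 12.6 and 15.6 CPM (1.32, SE 0.25, adjusted p = 0.001). Its relative Rragc was more abundant, at 197, 202 and 172 against 456, 494 and 450.4 CPM (1.30, SE 0.10, adjusted p = 3.3e-06). Rragd, a further Rag GTPase below that level and named after its values were seen, differed more, at 0.687, 0.283 and 0.355 against 2.57, 2.52 and 2.55 CPM (2.51, SE 0.44, adjusted p = 0.00064). All of these were without overlap between groups. Lamtor3 does not stand for Ragulator, whose other subunits are named here after their values were seen. The 3 genes that passed toward embryonic cells were Lamtor1 (-0.54, SE 0.12, adjusted p = 0.0031), Lamtor2 (-1.02, SE 0.12, adjusted p = 3.7e-05) and Lamtor5 (-0.80, SE 0.12, adjusted p = 0.00023). Lamtor4 did not pass (-0.09, SE 0.16, adjusted p = 0.64). The factors themselves are named for their role, after their values were seen. Tfeb stood at 7.99, 6.01 and 7.55 against 14.7, 15.6 and 15.9 CPM (1.10, SE 0.16, adjusted p = 0.00022). Tfe3 stood at 60.6, 63.7 and 51.3 against 107, 97.4 and 85.6 CPM (0.72, SE 0.12, adjusted p = 0.0005). Mitf, the MiT factor with the highest level per kilobase, at 127, 110.3 and 127 against 105, 130.4 and 103 CPM, did not pass (-0.11, SE 0.12, adjusted p = 0.46). Of 4 tested cystatins, inhibitors of cysteine cathepsins, Cstb (1.09, SE 0.12, adjusted p = 2.3e-05) and Cst3 (0.76, SE 0.20, adjusted p = 0.0094) were higher in adult cells and Cst7 (-0.45, SE 0.11, adjusted p = 0.004) in embryonic cells. Cst3, at 176, 147 and 173 against 342, 304 and 192 CPM, was lowest of the adult libraries in replicate 3 and lost its call without embryonic replicate 2 (adjusted p = 0.052).

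Because Atp6v0d2 is known from osteoclasts, 8 osteoclast-associated genes were examined. The most abundant was Nfatc1, a transcription factor, at 261, 246 and 238 CPM in embryonic and 590.3, 602 and 534 CPM in adult replicates. Tnfrsf11a, the receptor of RANK ligand, followed at 4.10, 3.91 and 3.90 against 8.11, 8.89 and 6.63 CPM. The summed level of the list, mostly that of Nfatc1, was 247 to 270.2 against 543 to 618 CPM. Of the 5 genes tested, 4 passed toward adult and 1 toward embryonic cells, against 31.7% and 31.2% of all genes tested. Ctsk, cathepsin K, stood at 1.76, 1.73 and 1.54 against 8.59, 6.37 and 1.66 CPM, with overlapping groups (log2 fold change 1.73, SE 0.52, adjusted p = 0.018). Dcstamp and Ocstamp, fusion genes of osteoclasts, had 0 counts in all 3 embryonic libraries, and 5 of the 8 genes had a mean under 1 CPM in adult cells. Acp5, tartrate-resistant acid phosphatase, stood at 3.61, 3.31 and 3.42 CPM in the embryonic libraries and 0.201, 0.0692 and 0.105 CPM in the adult ones. All its adult values lay under the filter cutoff (0.223 CPM before scaling), so Acp5 passed only through the embryonic libraries. The gene with the largest log2 fold change of the list (7.66) averaged under 1 CPM in adult cells. That gene passed only through the adult libraries. The calls of both genes add nothing to their levels.

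**Figure D5:**
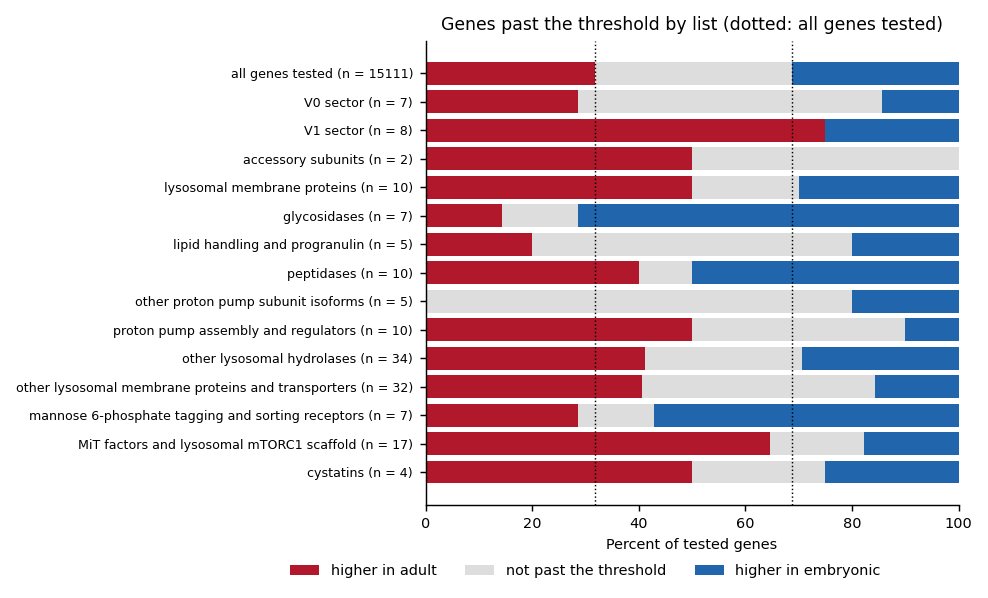
Percent of tested genes (horizontal axis) that were higher in adult (red), higher in embryonic (blue) or not past the threshold (grey), for all genes tested, the 7 groups of the set and the 7 further lists, with the number tested beside each name. Dotted lines mark the shares of all genes, 31.7% and 31.2%; the V1 sector and the MiT factor list have larger red shares, and the glycosidases and mannose 6-phosphate list larger blue shares, each over few genes.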

How the data were processed

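RNA of 3 embryonic and 3 adult libraries was made into full-length cDNA (SMART-Seq v4) and tagmented libraries, a kit that does not mark strand, per the labels' protocols. The authors deposited raw read counts for each gene. These came from featureCounts 1.5.0-p1, run on GENCODE M9 exons without strand (setting 0) and ignoring reads marked as duplicates, per the file headers. STAR and edgeR were used with GRCm38 (mm10), per the submitters' processing notes. Reads overlapping several genes were left out by these options, and 14 of the 49 genes share 0.694% to 27.4% of their exon bases with another gene. If duplicates were marked, the most abundant genes would be understated. Without strand, a gene and its antisense partner cannot be told apart.

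Symbols came from GENCODE M21 by gene ID (47224 matched, 419 did not). All 6 sample columns were used. The test was edgeR 4.0.16 under R 4.3.3 (TMM, filterByExpr with a minimum count of 10, robust quasi-likelihood fit, Benjamini-Hochberg over 15111 genes, threshold 0.05). CPM used TMM-scaled library sizes, and CPM per kilobase the deposited exon length. The SE of a log2 fold change was obtained as its absolute value over the square root of F. Libraries of a group differed by 34.3 to 89.1 in chi-square per degree of freedom, so none was another library's counts deposited again. Technical repeats of one animal would not be told apart by this. Reads carry no molecular identifiers, so limits and intervals cover counting error only. Alternatives were RLE and upper quartile scaling, 2 filters, DESeq2 1.42.0, limma-voom (limma 3.58.1), the replicate number as a block, a 2-fold minimum and leaving out each library, with both libraries numbered 3 left out as an addition after the data were seen.

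The genes, lists and rules were chosen with earlier results of these data known. In each group of the set, levels in every library are given for the 3 genes with the largest log2 fold change past the threshold, the gene with the highest mean CPM per kilobase and, unless over 3, those that did not pass. In each further list the 3 largest changes with at least 5 CPM in the higher group are named, and in each marker list the 2 most abundant genes. Of 6 cystatins, Csta2 was not matched.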

Additional observations from a re-analysis of the deposited data

How the results depend on the processing

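With a minimum of 2-fold the counts were 8 toward adult and 7 toward embryonic cells, in place of 20 and 17. Under RLE or upper quartile scaling and under limma-voom they stayed at 20 and 17, with DESeq2 they were 19 and 17, without a filter 16 and 17, and leaving out each library in turn gave 15 to 19 and 15 to 17. No gene of the set reversed its direction with a call in any of 14 alternatives. Of the 37 calls, 30 (15 in each direction) held in all 13 planned refits, 7 were lost in at least 1 and Lipa was gained in 1. The median log2 fold change of the 49 genes was -0.0284 to 0.103 with each library left out and 0.16 without both libraries numbered 3, so its sign is not settled. The share of Atp6v0d2 in the d subunit of adult cells was 75.8% when counts were not divided by exon length, against 67.4%, and 66.7% to 67.9% with each library left out, while the embryonic share was 0.144% to 0.365%. The replicate numbers did not pair the libraries: correlations of the deviations of same-numbered libraries were -0.122, -0.0791 and -0.133. With the replicate block the counts were 18 and 17, with Lamp2 (adjusted p = 0.05) and Lgmn (0.059) no longer called, and Tcirg1 (0.054) outside the set. Depth limits the folds of Ctss and Atp6v0d2, whose embryonic levels rest on 15 and 149 counts. The causes were not tested.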
